A study of Mus musculus with 6 samples.

Results

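The regions described here are solitary ATRX peaks of mouse erythroid cells, that is, peaks far from any other ATRX peak in those cells. They were chosen by position: a peak of the foetal liver list counted as solitary where the edge-to-edge gap to the nearest other peak of that list was over 100 kb, and chromosomes 3, 6, 10, 11 and 13 were left out. This gave 397 of the 983 foetal liver peaks, or 397 of the 665 on the 16 chromosomes considered (59.7%). The other 268 peaks of those chromosomes lay in 110 runs, 82 of which held only 2 peaks and the longest 6. On the 5 chromosomes left out, 141 of 318 peaks (44.3%) met the same gap. The choice used the positions of the foetal liver peaks, so the gaps and the number per chromosome are descriptions. Peak width and the distance to peaks of the other cell type were not part of the choice.

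The assay was ChIP-seq, which sequences the DNA recovered with an antibody against a chromatin protein, here the antibody labelled ATRX H300. The foetal liver list comes from C57BL/6 erythroid cells, red cell precursors taken from dissociated livers at E14.5 (embryonic day) with antibodies to the red cell surface marker Ter119. The second list used comes from C57BL/6 mouse embryonic fibroblasts (MEFs), connective tissue cells grown in culture, whose day of isolation the labels do not give. Neither group carries a genotype or treatment label, each is 1 library, and the labels do not say how many embryos or cultures went into it. The other 4 samples of the series, which are a C57BL/6 MEF input, ATRX and input libraries of MEFs labelled W8, and an ATRX library of Suv39h1/2 knockout MEFs, were not analysed here. Each list holds only the mm9 chromosome, start and end of its peaks, so the depth behind a peak is unknown, no peak can be ranked by height, and the labelled cell types cannot be checked against marker genes.

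ATRX is a chromatin remodelling enzyme of the SWI/SNF family. With its partner DAXX it places the histone variant H3.3 at repeats, telomeres and pericentromeric heterochromatin, and it is known for binding G-rich tandem repeats that can form unusual DNA structures. Inherited ATRX mutations cause a syndrome with reduced alpha-globin expression in red cells, which is why erythroid cells are often studied for this protein. The series title places the study at transcribed telomeric repeats. The lists hold no sequence and no gene names, and the gene and promoter tables at hand are of another build (GRCm38.p6), so genes, repeats and sequence under these peaks were not analysed here. Regions are given by mm9 position, with starts counted from 1.

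Solitary peaks were narrow. The narrowest was 299 bp, the median 624 bp (exact 95% interval over peaks 566 to 666 bp, n = 397) and the widest 7409 bp. The middle of the distribution, between the lower and upper quartiles, ran from 438 to 923 bp. Peaks under 400 bp numbered 78 (19.6%, exact interval 15.9 to 23.9%), peaks of at least 1000 bp 79 (19.9%), peaks of at least 2000 bp 15 and peaks of at least 5000 bp 4. Together the solitary peaks covered 327.4 kb, which was 35.1% of the length of all foetal liver peaks.

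The remaining peaks of the same chromosomes had a median of 721 bp (665 to 806 bp, n = 268), an upper quartile of 1118 bp and a widest peak of 22804 bp. The first peak of each run, counted once per run so that neighbours do not repeat, had a median of 727 bp (656 to 844 bp, n = 110). The intervals of the solitary and the remaining peaks met only at 665 to 666 bp. By chromosome, the solitary median was the smaller on 12 of the 15 chromosomes that hold solitary peaks, the exceptions being 17, 18 and 19. With 1 library there is no replicate error to set this difference against, and no test was made over peaks, which are not replicates.

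**Figure D1:**
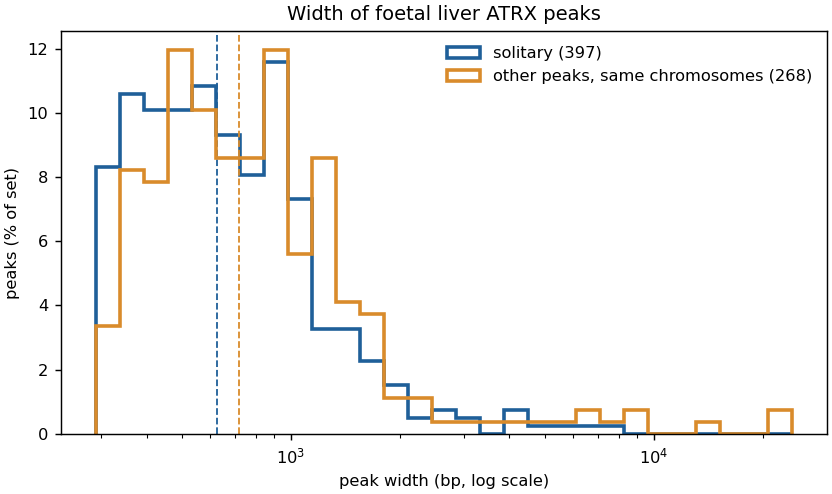
Width of foetal liver ATRX peaks (x axis, bp, log scale) as a percentage of each set (y axis), for the 397 solitary peaks and the 268 other peaks of the same chromosomes, with dashed lines at the medians of 624 and 721 bp. The 2 outlines overlap through most of their range, and every peak over 7409 bp is in the other set.

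The widest solitary peak lay at chr4:135729160-135736568 (7409 bp), 732.8 kb from the next foetal liver peak. Its nearest MEF peak was 20.01 kb away and only 304 bp wide. Next came chr16:3231612-3238062 (6451 bp), chr17:39979943-39985774 (5832 bp) and chr1:194571220-194576390 (5171 bp), all 3 of which were MEF peaks too. After these followed chr1:181832941-181837334 (4394 bp), which had no MEF peak within 1.03 Mb. The rest of the 10 widest were chr19:41527173-41531208 (4036 bp), chr5:147514934-147518956 (4023 bp), chr1:173430545-173433742 (3198 bp), chr15:101024988-101028090 (3103 bp) and chr7:86149382-86152116 (2735 bp). The first 4 of these 5 overlapped a MEF peak, while the chromosome 7 region lay 459.0 kb from one. Thus 7 of the 10 widest solitary peaks were also in the MEF list, with the same start and end.

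The narrowest solitary peaks lay at chr9:59570824-59571122 and chr8:77607675-77607973 (299 bp each) and at chr1:66803850-66804149 (300 bp). Their nearest MEF peaks were 184.3, 1807 and 2008 kb away in that order.

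Solitary peaks were found on 15 chromosomes. Chromosome 5 held 44, chromosome 9 held 38, chromosome 1 held 36 and chromosome 4 held 35. Chromosome X held 5 and chromosome Y none, since each of its 7 peaks had another within 100 kb. Per 10 Mb of chromosome, the average over these 15 was 2.03, with 3.57 on chromosome 17, 3.42 on chromosome 19 and 3.06 on chromosome 9 at the high end. At the low end were chromosome X with 0.300 and chromosome 14 with 1.28.

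How much of a chromosome's list was solitary varied less. Leaving out X and Y, the share ran from 45.8% on chromosome 12 (22 of 48 peaks, exact interval 31.4 to 60.8%) to 72.7% on chromosome 14 (16 of 22, 49.8 to 89.3%). Those intervals overlap, so chromosomes with few peaks, such as 14, cannot be ordered by this share.

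**Figure D2:**
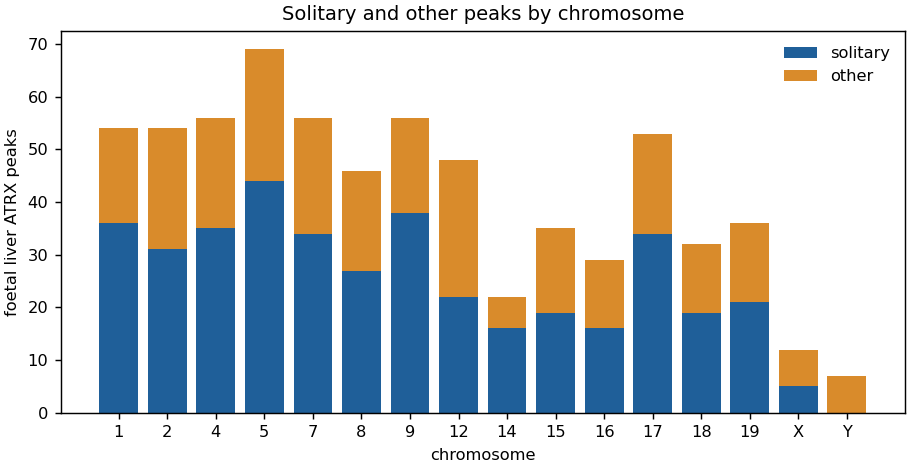
Number of foetal liver ATRX peaks (y axis) on each chromosome considered (x axis), split into solitary and other peaks. Chromosome 5 has the most solitary peaks (44), chromosome X has 5 and chromosome Y has none.

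Chromosomes with more MEF peaks per 10 Mb also held more solitary foetal liver peaks per 10 Mb. Spearman's rho was 0.83 over 15 chromosomes and 0.79 over the 14 without X. This is a description over chromosomes that share 1 library per cell type and differ in gene and base composition, which were not examined.

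The gap to the next foetal liver peak, which the choice fixed to be over 100 kb, had a median of 778.1 kb and reached 21.2 Mb. In 57 solitary peaks it was at most 200 kb, in 170 between 200 kb and 1 Mb, in 136 between 1 and 5 Mb and in 34 over 5 Mb. The most isolated peaks were chr4:94718706-94719126 (421 bp, gap 21.2 Mb), chr2:65884482-65885336 (855 bp, 18.8 Mb), a pair on chromosome X that are each other's nearest neighbour (chrX:91048147-91049420, 1274 bp, and chrX:109248758-109249099, 342 bp, 18.2 Mb apart) and chr14:8704025-8704522 (498 bp, 17.3 Mb). Of this set the chromosome X peak of 1274 bp was a MEF peak as well, and the others were at least 612.9 kb from one. Just inside the limit were chr16:32509243-32510035 and chr16:32610529-32610954 with a gap of 100493 bp between them, and chr4:131983444-131984510 with 100496 bp. Just outside it were chr12:88135979-88137688 and chr12:88235413-88235714, 97724 bp apart, and chr5:137730422-137731364 with a gap of 96315 bp.

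Solitary peaks leaned towards the distal end of their chromosomes. Mouse chromosomes other than Y have the centromere at the very start, where the first 3 Mb of mm9 carry no sequence, and the distal end is the telomere side. Chromosome Y has peaks within its first 3 Mb, and was left out of counts measured from that mark. When the sequence after that stretch was divided into 5 equal parts per chromosome, the most distal part held 116 of 397 solitary peaks (29.2%, exact interval 24.8 to 34.0%). The other 4 parts held 73, 60, 77 and 71 in order from the centromere side. Among the remaining foetal liver peaks, Y left out, the most distal part held 105 of 261 (40.2%, 34.2 to 46.5%), so the lean was present in both sets. With the first peak of each run only, the share was 46 of 107 (43.0%, 33.5 to 52.9%). That interval meets the one of the solitary peaks only at 33.5 to 34.0%.

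In the last 5 Mb there were 23 solitary peaks (5.79%, exact interval 3.71 to 8.57%), where the length of that window is 3.92% of the sequence. The last 1 Mb held 8 (2.02%, 0.874 to 3.93%), where length is 0.784%. Of these 8, chromosome 9 alone contributed 4, so 4 are left without it. The remaining peaks of the same chromosomes had 18 of 268 in the last 5 Mb (6.72%, 4.03 to 10.5%) and 10 in the last 1 Mb (3.73%, 1.80 to 6.75%). Those 10 lay on chromosomes 4, 15 and X only. With the first peak of each run only, 4 of 110 lay in the last 1 Mb (3.64%, 1.00 to 9.05%).

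The 4 chromosome 9 peaks formed a loose series, each more than 100 kb from the next. From the end inwards they were chr9:124052694-124053186 (493 bp, 22.99 kb from the end), chr9:123760829-123761686 (858 bp, 314.5 kb), chr9:123626685-123626987 (303 bp, 449.2 kb) and chr9:123438002-123438871 (870 bp, 637.3 kb). Their nearest MEF peaks were 207.7, 71.07, 205.8 and 66.7 kb away, so none coincided with a MEF peak. The other peaks in the last 1 Mb were chr19:61283363-61283976 (614 bp, 58.5 kb from the end), chr4:155267363-155267893 (531 bp, 362.2 kb), chr2:181145470-181145820 (351 bp, 602.3 kb) and chr7:151709158-151709603 (446 bp, 815.0 kb). The 10 nearest an end were completed by chr15:101980884-101981613 (730 bp, 1513 kb from the end, with a MEF peak 3.17 kb away) and chr19:59274123-59275924 (1802 bp, 2067 kb from the end). Of these 10, 0 overlapped a MEF peak, where 8.06% of all solitary and 6.21% of all foetal liver peaks did, so few overlaps are near that background.

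On the centromere side the counts of solitary peaks were near the share of length. The first 1 Mb of sequence held 4 solitary peaks (1.01%, exact interval 0.275 to 2.56%) and the first 5 Mb held 12 (3.02%, 1.57 to 5.22%), against the same length shares of 0.784% and 3.92%. Of the remaining peaks, 19 of 268 lay in the first 5 Mb (7.09%, 4.32 to 10.85%), and with the first peak of each run only, 6 of 110 (5.45%, 2.03 to 11.5%). Chromosome 19 alone contributed 15 of these 19, which are all its remaining peaks, and most of the 6. The totals of 268 and 110 include chromosome Y, whose peaks were not counted here. The nearest to the start were chr17:3230405-3230705 (301 bp, 230.4 kb past the 3 Mb mark), chr16:3231612-3238062 (6451 bp, 231.6 kb), chr8:3500120-3500440 (321 bp, 500.1 kb), chr8:3691980-3692874 (895 bp, 692.0 kb) and chr2:4482916-4483410 (495 bp, 1483 kb). Only the wide chromosome 16 region of these 5 was a MEF peak.

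Most solitary peaks had no MEF counterpart. Of the 397, 32 overlapped a MEF peak by at least 1 bp (8.06%, exact interval 5.58 to 11.2%), beside 6.21% of all 983 foetal liver peaks and 17 of 268 remaining peaks of the same chromosomes (6.34%, 3.74 to 9.96%). The share in solitary peaks was thus near the background, and the intervals overlap widely. Within 10 kb a MEF peak was found for 46 (11.6%, 8.61 to 15.2%), beside 12.0% of all foetal liver peaks.

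At larger distances fewer solitary peaks had a MEF peak in reach than the peaks with neighbours. Within 100 kb there was one for 109 of 397 (27.5%, exact interval 23.1 to 32.1%), beside 33.3% of all foetal liver peaks and 106 of 268 remaining peaks of the same chromosomes (39.6%, 33.7 to 45.7%). Within 1 Mb there was one for 315 (79.3%, 75.02 to 83.2%), beside 82.2% of all and 236 of the remaining 268 (88.1%, 83.6 to 91.7%). The median distance was 285.4 kb for solitary peaks (246.2 to 350.5 kb), with quartiles of 80.2 and 805.6 kb, and 147.2 kb for the remaining peaks (114.5 to 196.3 kb).

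Peaks of a run share their surroundings, so they do not count separately. Taking only the first peak of each run, the median distance was 178.8 kb (116.7 to 254.6 kb, n = 110) and 33.6% had a MEF peak within 100 kb (24.9 to 43.3%), and both intervals overlap those of the solitary peaks. By chromosome, the solitary median was the larger on 11 of 15, the exceptions being 2, 4, 7 and 9. The solitary medians ran from 143.5 kb on chromosome 19 to 848.1 kb on chromosome 8. They were lower on chromosomes with more MEF peaks per 10 Mb (Spearman's rho -0.59 over 15 chromosomes, -0.53 over the 14 without X, given as a description).

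**Figure D3:**
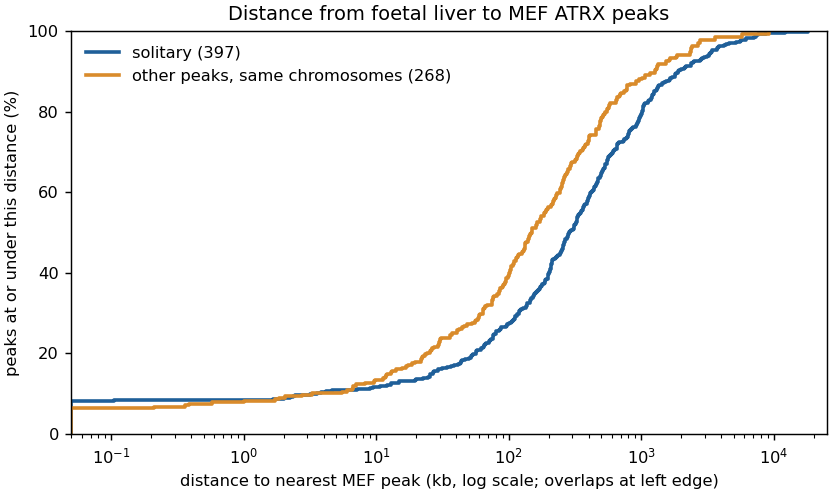
Percentage of peaks (y axis) whose nearest MEF peak lies at or under a given edge-to-edge distance (x axis, kb, log scale), for the 397 solitary peaks and the 268 other peaks of the same chromosomes, with overlapping peaks at the left edge. The lines run together up to about 10 kb and then part, with 27.5% of solitary and 39.6% of other peaks reached by 100 kb.

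Every overlap was an exact coincidence. All 32 overlapping solitary peaks had the same start and end as a MEF peak, so width and position at these sites were not measured separately in the 2 cell types. How such shared boundaries arose in making the lists was not tested. These 32 were wide, from 542 to 6451 bp with a median of 1422.5 bp (exact interval 1169 to 1846 bp), and made up 20.0% of the total length of the solitary peaks. The 365 without overlap had a median of 584 bp (550 to 634 bp). Of the 32 MEF partners, 27 (84.4%, 67.2 to 94.7%) had no other MEF peak within 100 kb either, compared with 811 of all 1385 MEF peaks on the chromosomes considered (58.6%, 55.9 to 61.2%). For the 365 solitary peaks without overlap, the same held for the nearest MEF peak in 289 (79.2%, 74.6 to 83.2%). That share counts a MEF peak again for each solitary peak it is nearest to, and nearest peaks are not an even sample of the MEF list. It is therefore no like comparison for the 27 of 32, and whether isolation was particular to the coinciding sites was not tested.

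The 10 widest of the coinciding regions included 7 already named, on chromosomes 16, 17, 1 (2 regions), 19, 5 and 15. The others were chrX:6647446-6650075 (2630 bp), chr16:11422862-11424850 (1989 bp) and chr5:143025999-143027844 (1846 bp). Gaps to other foetal liver peaks in this set of 10 ran from 125.8 kb (chromosome 15) to 5.00 Mb (chromosome 19). In the MEF list, the chromosome 17 region was the most isolated of the 10, at 3765 kb from the next MEF peak, and the chromosome 15 region the least, at 103.3 kb. By chromosome, coinciding peaks were most numerous on chromosome 5 with 5, and chromosome 14 had none among its 16.

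Coincidence with the MEF list was concentrated in the widest solitary peaks. Ranked by width into 4 classes of nearly equal size, the narrowest class (299 to 438 bp) had 0 of 100 (exact upper limit 3.62%), and the following classes had 1 of 99 and 3 of 99. The widest class (923 to 7409 bp) had 28 of 99 (28.3%, exact interval 19.7 to 38.2%). Among the remaining foetal liver peaks in the same width ranges the counts were 0 of 45, 0 of 66, 1 of 67 and 16 of 90 (17.8% in the widest range, 10.5 to 27.3%), so this pattern was not particular to solitary peaks. At widths of at least 2000 bp, 8 of 15 solitary and 12 of 18 remaining peaks coincided with a MEF peak. A wider peak meets another by 1 bp more easily, and what this adds to the counts was not tested. All 32 solitary and all 17 remaining peaks that overlapped a MEF peak shared its start and end. With identical boundaries, requiring an overlap of 50% of the shorter peak could not change the solitary share of 8.06%. The coinciding peaks have the same width in both lists, so the width they were ranked by is not a separate foetal liver measure. Why coincidence was more frequent at larger widths was not tested.

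**Figure D4:**
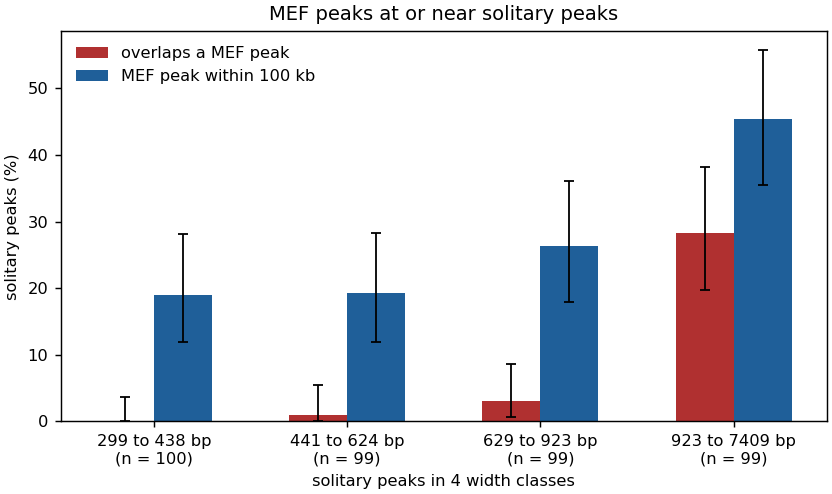
Percentage of solitary peaks (y axis) that overlap a MEF peak, or have one within 100 kb, in each of 4 width classes (x axis, bp, with the number of peaks). Overlapping peaks are counted in both shares. Bars show shares and lines exact 95% intervals over peaks; overlap is 0 in the narrowest class and 28.3% in the widest.

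The median distance to a MEF peak was also shorter in the wider classes. It was 571.5 kb in the narrowest (exact interval 347.3 to 780.5 kb), then 330.8, 258.0 and, in the widest, 143.5 kb (29.4 to 198.3 kb). A MEF peak lay within 100 kb of 19, 19, 26 and 45 peaks in that order, counts that include the 0, 1, 3 and 28 overlapping peaks. Over the 397 solitary peaks Spearman's rho between width and distance was -0.31. Over the 365 without overlap it was -0.15, so much of the relation lay in the coinciding peaks. Those have the same width in both lists, and both rho values are descriptions over peaks of 1 library. Median widths by distance were 697 bp up to 10 kb (14 peaks), 650 bp from 10 to 100 kb (63), 607.5 bp from 100 kb to 1 Mb (206) and 528.5 bp beyond 1 Mb (82, exact interval 454 to 559 bp). The remaining peaks of the same chromosomes did not follow this order, with medians of 668, 627.5, 734.5 and 782 bp (the last over 32 peaks, 529 to 1001 bp).

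**Figure D5:**
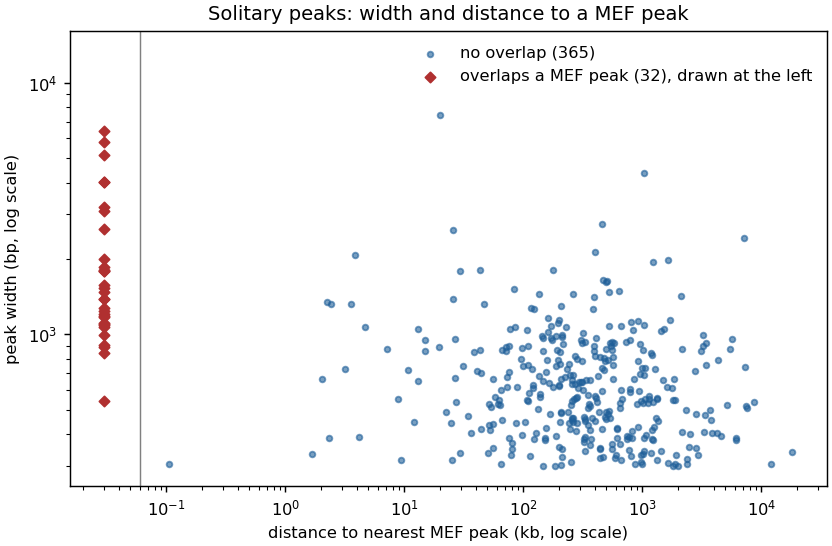
Width (y axis, bp, log scale) of each solitary peak against the distance to its nearest MEF peak (x axis, kb, log scale), with the 32 overlapping peaks drawn apart at the left. The overlapping peaks run from 542 to 6451 bp, and most of the 365 others lie under 1000 bp, at distances of 0.105 kb to 18.2 Mb.

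A few solitary peaks lay next to a MEF peak without touching it. The closest was chr7:54264008-54264313 (306 bp), 0.105 kb from a MEF peak of 389 bp, and it was the only one within 1 kb. The next were chr1:90153052-90153385 (334 bp, 1.67 kb), chr18:85054171-85054834 (664 bp, 2.02 kb from a MEF peak of 4746 bp), chr5:115942741-115944086 (1346 bp, 2.23 kb) and chr2:160428836-160429222 (387 bp, 2.34 kb). The list of 10 went on with chr19:10052485-10053799 (1315 bp, 2.41 kb), chr15:101980884-101981613 (730 bp, 3.17 kb), chr2:31983207-31984530 (1324 bp, 3.56 kb), chr12:60144252-60146308 (2057 bp, 3.82 kb) and chr19:56876218-56876609 (392 bp, 4.17 kb). Widths in this set spanned 306 to 2057 bp, so neighbours of MEF peaks were not uniformly wide. Over the 365 solitary peaks without overlap, the nearest MEF peak was on the distal side in 184 and on the centromere side in 181.

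At the other extreme, 82 solitary peaks were over 1 Mb from any MEF peak, and 12 of these over 5 Mb. The farthest were chrX:109248758-109249099 (342 bp, 18.2 Mb) and chrX:153698282-153698585 (304 bp, 12.04 Mb), on a chromosome where the MEF list holds 11 peaks in all. Then came a group of 3 on chromosome 5, at chr5:21854054-21854590 (537 bp), chr5:22939048-22939557 (510 bp) and chr5:23144993-23145510 (518 bp). Their distances were 8.68, 7.59 and 7.39 Mb, all to the same MEF peak of 2044 bp. These 5 were all under the solitary median width, but not all far peaks were. On chromosome 5, chr5:23428223-23430626 (2404 bp) lay 7.10 Mb from that same MEF peak. In addition, chr5:20403031-20403771 (741 bp) lay 7.31 Mb from its nearest MEF peak.

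The number of MEF peaks within 1 Mb on either side of the midpoint summarises these surroundings. It was 0 for 83 solitary peaks (20.9%, exact interval 17.0 to 25.2%), 1 for another 83 and 5 or more for 79 (19.9%, 16.1 to 24.2%), with a median of 2 and a highest value of 17. For the remaining peaks of the same chromosomes it was 0 for 32 of 268 (11.9%, 8.31 to 16.4%) and 5 or more for 85 (31.7%, 26.2 to 37.7%), with a median of 3. Taking the first peak of each run, 13 of 110 had none (11.8%, 6.45 to 19.4%) and 30 had 5 or more (27.3%, 19.2 to 36.6%), and these intervals overlap those of the solitary peaks.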

How the data were processed

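Per the submitters' processing notes, Bowtie 0.12.3 was the aligner and mm9 the genome build. For the peak caller, its threshold, its control and any removal of artefact-prone regions, nothing is stated in the sources used here. The deposited peak lists hold 3 columns (chromosome, start, end in bp) with no score, signal or count. Each list is 1 library, and whether the foetal liver list had a control is unknown, so cell type, depth and control cannot be told apart as the origin of a difference between lists.

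Gaps and distances were measured from edge to edge, and a MEF peak overlapped if it shared at least 1 bp. Chromosome lengths of mm9 came from GenomeInfoDb 1.38.1. Medians have exact order-statistic 95% intervals and shares exact Clopper-Pearson 95% intervals. They cover the counting of peaks only, treat neighbouring peaks as independent, and say nothing of variation between animals or cultures. No significance test was made. Regions were named by rank: the widest, the narrowest, the overlapping, the nearest to and farthest from a MEF peak, the nearest to either end, the most isolated, and those beside the 100 kb limit. The members, lists and comparisons were chosen with earlier results of these data known. The functions were tested on simulated data. Computation used Python 3.11.15, numpy 2.4.6, pandas 2.3.3, scipy 1.17.1 and matplotlib 3.10.9.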

Additional observations from a re-analysis of the deposited data

How the results depend on the processing

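Results were recomputed with other gaps, chromosomes, windows and overlaps, and, chosen after seeing the data, with each of the 15 chromosomes left out in turn. Leaving out chromosomes gave 353 to 392 solitary peaks, median widths of 614 to 634 bp, overlaps of 7.65 to 8.56%, median distances of 274.2 to 311.0 kb, 26.3 to 28.7% with a MEF peak within 100 kb and 5.01 to 6.52% in the last 5 Mb, and the medians and shares stayed inside their 95% intervals. Gaps of 50 and 200 kb gave 454 and 340 peaks, all chromosomes 538 and autosomes 392, and the other values stayed inside their intervals under these settings. A gap of 1 Mb left 170 peaks, with a median width of 557.5 bp and 5.29% overlapping. The wider 50% of solitary peaks, used because no peak strength is given, had a median width of 923 bp, 15.6% overlapping, a median distance of 198.3 kb and 35.7% with a MEF peak within 100 kb. With the coinciding peaks left out of the whole solitary set, 21.1% had a MEF peak within 100 kb. Counting a MEF peak within 10 kb as overlap gave 11.6%, and windows of 10 kb and 1 Mb in place of 100 kb gave 11.6% and 79.3%. Leaving out MEF peaks under the MEF median width, which removes about 50% of them, gave a median distance of 685.7 kb and 13.1% within 100 kb. The last 1 Mb and 10 Mb held 2.02% and 12.6%. Midpoint distances moved no value outside its interval. An overlap of 50% of the shorter peak could not move the overlap share, since all overlapping peaks had identical boundaries. No paired analysis was possible because each group is 1 library. The unknown depth limits every statement on peaks missing from a list.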
